A study of Mus musculus with 18 samples.

Results

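Ncr1, the low-affinity Fc receptors for IgG and the adaptor chains they signal through were described in natural killer (NK) cells with and without Acly. The set is the 6 genes of the count table whose gene name is Ncr1, Fcgr3, Fcgr4, Fcgr2b, Fcer1g or Cd247, of 55487 genes in all. Of these, 5 passed the filter on low counts, beside 14864 genes that passed in total, and Fcgr4 did not. Acly encodes ATP-citrate lyase, the enzyme that cleaves cytosolic citrate to acetyl-CoA.

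The cells were sorted YFP+ NK cells from mouse spleen, and RNA was sequenced in 18 libraries, 3 in each of 6 groups. Wild-type (WT) mice carried Ncr1 CRE-ERT2, an inducible Cre, and the reporter Rosa YFP/YFP, and knock-out (KO) mice had Acly fl/fl in addition to both. Mice of either genotype were fed tamoxifen for 48 hours and taken 5 days after its withdrawal. Cells were profiled fresh, after 72 hours of priming in 100 ng/ml IL-15, or primed, washed and then stimulated by plate-bound NKG2D reagent at 20 ug/ml for 6 hours (called NKG2D below). None of the 6 groups was cultured for 72 hours without IL-15, and none was washed and kept for 6 hours without the NKG2D reagent. Priming and the NKG2D step below thus name the whole of each step. Within a step, the stimulus cannot be told apart from the time in culture or, for NKG2D, from the wash. The Cre that marks and deletes is itself driven from Ncr1, and the labels do not say how that allele affects Ncr1 transcript. Whether the 3 libraries of a group come from 3 separate animals is not stated in the labels, and the p-values then cover only the spread among these libraries, which may in part be technical.

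Ncr1 encodes NKp46, an activating receptor found on NK cells and some other innate lymphocytes. Fcgr3 encodes the mouse activating receptor for IgG that lets NK cells kill antibody-coated targets, and Fcgr4 a further activating IgG receptor, best known from myeloid cells. These receptors have little signalling capacity of their own and signal through adaptor chains. The adaptor genes of the set are Fcer1g (the Fc receptor gamma chain) and Cd247 (CD3 zeta). The cytoplasmic tails of both chains hold immunoreceptor tyrosine-based activation motifs (ITAMs). Phosphorylated ITAMs recruit the kinases Syk and Zap70. Fcgr2b encodes the inhibitory IgG receptor, whose tail holds an inhibitory motif and recruits phosphatases, and it is best known from B cells and myeloid cells.

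Total reads on genes ran from 14772300 to 34367538 per library. Primed KO replicate 1 had the fewest genes with a read, 14695, against at least 17877 in every other library. By Xist and 4 Y-linked genes, 6 libraries had a female pattern, 1 in each group, and the other 12 a male one. The pattern followed the replicate number within each genotype, with WT replicate 1 and KO replicate 2 female in all 3 conditions, so each group held RNA from more than 1 animal. Acly was 250 CPM (reads of a gene scaled to the size of its library) in WT and 18.9 in KO fresh cells, 256 against 42.8 in primed cells and 164 against 36.3 after NKG2D, and no KO library overlapped a WT library. All 9 genes of an NK cell marker list were detected in every group. Their summed level was lowest in the KO NKG2D libraries, at 7797 to 9464 CPM, against 10888 to 12623 CPM in WT NKG2D and 22876 to 25541 CPM in fresh WT. The genes of this list differed in direction. After NKG2D, Gzma averaged 5376 CPM in WT and 3516 CPM in KO, and Prf1 914 and 292 CPM. Il2rb, Klrd1 and Tbx21 were also lower in KO. Eomes (57.5 and 82 CPM), Itga2 (14.8 and 23.6), Nkg7 (1552 and 1923) and Klrb1c (520 and 541) were higher in KO. Of the marker lists of other cells, the 8 dendritic cell genes, mostly Bst2, summed to 167 to 256 CPM in primed WT and 74 to 149 CPM in primed KO. In these groups Bst2 averaged 195 and 100 CPM and H2-Ab1 16.1 and 1.61 CPM, with Clec9a, Cd209a and Siglech at 0 in both. The 8 mast cell and basophil genes, mostly Kit, summed to 163 to 184 CPM in primed WT and 96.4 to 101 CPM in primed KO. The 12 monocyte, macrophage and neutrophil genes, mostly Itgam and Cd68, summed to 168 to 186 CPM in WT and 279 to 347 CPM in KO after NKG2D. The 11 T cell genes summed to 485 to 620 CPM in primed WT and 438 to 589 CPM in primed KO, and the 8 ILC1 genes to 155 to 299 and 205 to 254 CPM. The part of these sums in the values of the 6 genes was not tested.

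On mm10, 5 of the 6 genes lie on chromosome 1. Fcgr2b (chr1:170958617-170976547, minus strand), Fcgr4 (chr1:171018920-171029761, plus strand), Fcgr3 (chr1:171051174-171064935, minus strand) and Fcer1g (chr1:171229572-171234365, minus strand) share a stretch of 276 kb. Cd247 lies apart at chr1:165788681-165877277 on the plus strand, and Ncr1 at chr7:4337724-4345164 on the plus strand. Fcgr2b and Fcgr3 are close relatives, and the values of both depend on how reads from their identical stretches were divided. The longest such stretch in their coding sequences (GENCODE on mm10, minus strand, coding bases 278 to 406 of Fcgr2b and 263 to 391 of Fcgr3) is shown because a read inside it cannot be assigned to either gene:
Fcgr2b and Fcgr3, shared 129 bases: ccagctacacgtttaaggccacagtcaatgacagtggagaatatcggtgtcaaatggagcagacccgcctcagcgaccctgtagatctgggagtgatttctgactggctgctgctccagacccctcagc
Runs of 50 bases that both genes hold made up 9.58% of the distinct runs of Fcgr3 and 2.92% of those of Fcgr2b. Runs of 100 bases made up 2.54% and 0.753%. No such run was shared between any other pair of the 6 genes.

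The bases upstream of Ncr1, Cd247 and Fcer1g are shown because these 3 genes fell together on IL-15 priming in both genotypes, as described below. Fcgr2b fell too, but the annotated exons of that gene overlap its window, which is not printed and held the ETS letters at position -31 on the opposite strand. The printed sequences are from RefSeq windows (GRCm38.p6) of 250 bases that end at the annotated start. They leave out the gene's own exons, for which the Fcer1g window is cut to 234 bases, short of that start. Ncr1 had 2 such windows, of which the first is printed. Sequences are written 5′ to 3′ on the strand of the gene, with matches to the searched motifs in capitals:
Ncr1, chr7:4337465-4337714, plus strand: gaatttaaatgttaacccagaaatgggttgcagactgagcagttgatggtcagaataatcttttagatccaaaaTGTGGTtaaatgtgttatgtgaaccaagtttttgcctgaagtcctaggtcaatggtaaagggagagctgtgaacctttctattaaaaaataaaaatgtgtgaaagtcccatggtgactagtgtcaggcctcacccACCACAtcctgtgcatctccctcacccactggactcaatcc
Cd247, chr1:165788431-165788680, plus strand: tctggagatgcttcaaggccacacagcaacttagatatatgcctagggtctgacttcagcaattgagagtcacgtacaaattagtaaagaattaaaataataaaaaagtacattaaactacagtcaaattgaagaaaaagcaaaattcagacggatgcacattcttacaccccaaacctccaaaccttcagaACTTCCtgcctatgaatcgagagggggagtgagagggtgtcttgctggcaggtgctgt
Fcer1g, chr1:171234366-171234599, minus strand: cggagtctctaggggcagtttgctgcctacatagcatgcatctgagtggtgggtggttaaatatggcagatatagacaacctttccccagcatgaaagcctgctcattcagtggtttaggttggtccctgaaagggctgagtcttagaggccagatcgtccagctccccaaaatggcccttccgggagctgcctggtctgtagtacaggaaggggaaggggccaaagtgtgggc
Motifs searched on both strands were TGTGGT (RUNX), GGAAGT (ETS), TTCNNNGAA (STAT), AGGTGNGA (T-box) and TGANTCA (AP-1). The Ncr1 window held the RUNX letters at positions -176 and -41 from the start, the second on the opposite strand, and 14% of 32851 promoter windows of 250 bases hold them at least once. The Cd247 window held the ETS letters at position -58 on the opposite strand, which 19.7% of windows hold. The Cd247 window also overlaps an exon of Gm16565. None of the 5 motifs matched in the Fcer1g window. A match describes letters and is no evidence of binding.

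Ncr1 was highest in fresh cells and fell at each step of culture. In fresh WT libraries 1, 2 and 3 it read 973, 915 and 960 CPM, and in fresh KO 1092, 1175 and 970 CPM. In primed cells the WT libraries read 414, 355 and 306 CPM and the KO libraries 504, 618 and 557 CPM. After NKG2D the WT libraries read 253, 174 and 175 CPM and the KO libraries 112, 133 and 115 CPM. The fresh genotypes overlapped, every primed KO library was above every primed WT library, and after NKG2D every KO library was below every WT library. KO was thus higher before the NKG2D stimulus and lower after it.

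The difference of Ncr1 between genotypes was 0.64 on the log2 scale in primed cells (SE 0.144, adjusted p = 0.00581, edgeR quasi-likelihood test with Benjamini-Hochberg adjustment) and -0.74 after NKG2D (SE 0.144, adjusted p = 0.00187). In fresh cells it was 0.18 (95% interval -0.12 to 0.49, adjusted p = 0.628). Priming lowered Ncr1 by 2.65-fold in WT (95% interval 2.14 to 3.28) and by 1.93-fold in KO (1.56 to 2.38), and the difference between these responses did not pass the test (0.46, adjusted p = 0.158). That difference was called with limma voom (adjusted p = 0.0462) and with a term for the sex pattern (adjusted p = 0.0491). The NKG2D step lowered Ncr1 by 1.79-fold in WT (1.45 to 2.21) and by 4.67-fold in KO (3.75 to 5.81). The difference between the responses to NKG2D was -1.38 (95% interval -1.81 to -0.96, adjusted p = 0.0012).

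The female-pattern library held the highest Ncr1 value of its group in 6 of 6 groups. It was replicate 1 in every WT group and replicate 2 in every KO group, so the 6 groups may share animals and may not be independent. Within a genotype, the sex pattern cannot be told apart from other traits of that replicate. The fit below takes the libraries as independent. With the sex pattern as a term beside the 6 group means, Ncr1 was 0.26 higher in those libraries (log2 scale, SE 0.0619, adjusted p = 0.221) and did not pass the test. Of the 5 genes tested here, 0 passed in that comparison by edgeR, 1 had an unadjusted p under 0.05, and 0.128% of all genes tested passed. The Ncr1 difference between genotypes was 0.648 in primed cells and -0.728 after NKG2D in that fit.

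**Figure D1:**
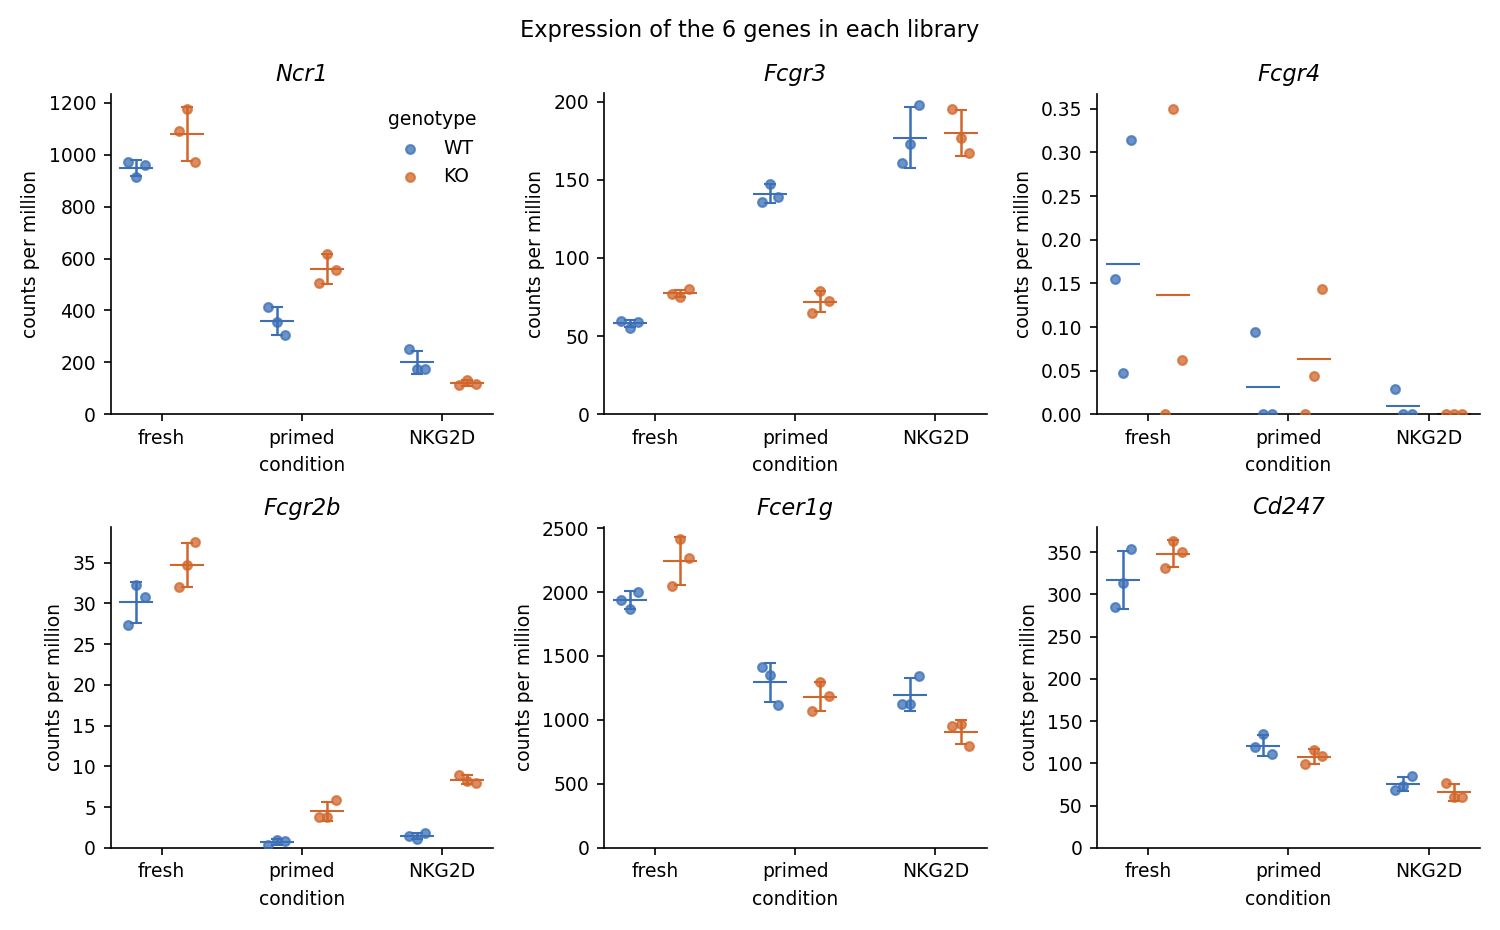
Level in CPM of the 6 genes in each library, by condition on the horizontal axis and genotype by colour. Points are libraries (replicates 1 to 3 from left to right), the wide tick is the mean and the bar its SD (n = 3, not drawn for Fcgr4), and each panel has its own linear scale from 0. Ncr1 falls from 915 to 1175 CPM in fresh libraries to 112 to 253 CPM after NKG2D, Fcgr3 separates the genotypes in primed cells, and Fcgr4 stays under 0.4 CPM throughout.

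Fcgr3, the activating IgG receptor of NK cells, rose on priming in WT and did not rise in KO. The fresh WT libraries read 59.8, 55.3 and 59.2 CPM and the fresh KO libraries 77.0, 75.1 and 80.0 CPM. The primed WT libraries read 136, 147 and 139 CPM and the primed KO libraries 65.0, 78.7 and 72.3 CPM. After NKG2D the WT libraries read 161, 173 and 198 CPM and the KO libraries 195, 177 and 167 CPM. No library overlapped between genotypes in fresh or primed cells, in opposite directions, and the genotypes overlapped after NKG2D. The order of the group means was thus NKG2D in both genotypes, then primed WT, then fresh KO and primed KO, which overlapped, then fresh WT.

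In primed cells Fcgr3 was 1.95-fold lower in KO than in WT (95% interval 1.69 to 2.26, log2 fold change -0.97, SE 0.0987, adjusted p = 7.22e-06). After NKG2D the difference was 0.02 (95% interval -0.18 to 0.23, adjusted p = 0.915). Priming raised Fcgr3 by 2.42-fold in WT (2.09 to 2.80), whereas in KO the log2 change was -0.10 (95% interval -0.31 to 0.10, adjusted p = 0.406), and the responses differed by -1.38 (SE 0.139, adjusted p = 2.08e-05). The NKG2D step then raised it by 2.49-fold in KO (2.16 to 2.88) and by 1.26-fold in WT (1.09 to 1.45, adjusted p = 0.0224), a difference of 0.99 between the responses (SE 0.138, adjusted p = 0.000919). The WT rise was lost without NKG2D WT replicate 2 or 3 or primed WT replicate 1 or 3 (adjusted p = 0.0609, 0.147, 0.104 and 0.0678), without the low-count filter (0.058) and in a fit with a replicate block (0.0608).

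In fresh cells Fcgr3 was 0.41 higher in KO (log2 scale, 95% interval 0.21 to 0.62, SE 0.0983) and did not pass the test over all genes (adjusted p = 0.201). It was called by DESeq2 (adjusted p = 0.027), by limma voom (0.00273) and by edgeR on the fresh libraries alone (0.0236). The authors' deposited table gives 0.428 with an adjusted p of 0.00399. The summed level of 9 erythroid and platelet marker genes also differed in fresh cells, at 123 to 213 CPM in WT and 27.8 to 30.3 CPM in KO. Most of that was in haemoglobin genes, with Hbb-bs at 50.4 CPM in WT and 4.63 CPM in KO and Hba-a2 at 47.1 and 4.86 CPM. The platelet genes were not lower in KO (Pf4 3.3 and 4.63 CPM, Ppbp 4 and 4.05, Itga2b 2.17 and 3.55). The part of these markers in the Fcgr3 difference was not tested.

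Fcgr2b, the inhibitory IgG receptor, was nearly lost on priming in WT and less so in KO. It read 27.3, 32.2 and 30.8 CPM in fresh WT and 32.0, 34.7 and 37.5 CPM in fresh KO. In primed cells it read 0.331, 0.927 and 0.891 CPM in WT, from 7, 17 and 29 reads, and 3.75, 3.77 and 5.87 CPM in KO, from 56, 85 and 122 reads. After NKG2D it read 1.46, 1.14 and 1.87 CPM in WT and 8.98, 8.19 and 7.95 CPM in KO. The fresh genotypes overlapped, and in both cultured conditions every KO library was above every WT library. Both cultured genotypes stayed below every fresh library.

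Fcgr2b was 6.14-fold higher in KO than in WT in primed cells (95% interval 4.09 to 9.22, log2 fold change 2.62, adjusted p = 1.07e-05) and 5.60-fold higher after NKG2D (3.88 to 8.08, log2 fold change 2.49, adjusted p = 6.32e-06). In fresh cells the log2 difference was 0.21 (95% interval -0.25 to 0.66, adjusted p = 0.742). Priming lowered Fcgr2b by 41.2-fold in WT (27.3 to 62.2) and by 7.75-fold in KO (5.47 to 11), and the responses differed by 2.41 (SE 0.352, adjusted p = 0.00054). The NKG2D step raised it by 2.05-fold in WT (1.33 to 3.14, adjusted p = 0.0185) and by 1.87-fold in KO (1.33 to 2.62, adjusted p = 0.00572), with a difference between responses of -0.13 (95% interval -0.90 to 0.63, adjusted p = 0.894). The WT rise after NKG2D was lost without NKG2D WT replicate 3 or primed WT replicate 1 (adjusted p = 0.0856 and 0.0862), with limma voom (0.0521) and on the compared libraries alone (0.129).

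Fcgr2b is best known from B cells and myeloid cells, whose markers differed among themselves in culture. Ms4a1 and Lyz2 were at 0 CPM in all 4 cultured groups, whereas Cd79b, Cd68 and Itgam were not. Cd79b read 2.14 and 1.59 CPM in primed WT and KO and 3.76 and 2.82 CPM after NKG2D. Cd68 read 12.7 CPM in fresh WT, 56.7 and 39.2 CPM in primed WT and KO, and 58.2 and 96.8 CPM after NKG2D. In fresh WT, Ms4a1 read 0.111 CPM and Lyz2 4.76 CPM beside 30.1 CPM of Fcgr2b, and in fresh KO they read 0.0333 and 2.56 beside 34.7 CPM. The 10 B cell and plasma cell markers summed to 10.3 to 13.0 CPM in fresh WT and to 0.536 to 3.24 CPM in primed KO, the latter beside 1.87 to 3.49 CPM in primed WT. The 12 monocyte, macrophage and neutrophil markers summed to 511 to 609 CPM in fresh WT, of which Itgam, also a gene of mature NK cells, gave 529 CPM on average. In culture their sum was 127 to 166 CPM in primed WT and 108 to 141 CPM in primed KO, and after NKG2D it was higher in KO. After NKG2D, Itgam read 114 CPM in WT and 206 CPM in KO, and Csf1r 0.0849 and 0.111 CPM. The part of these sums in the Fcgr2b values was not tested. In bulk RNA, fewer cells of a type and less RNA per cell cannot be told apart.

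The division of reads between Fcgr2b and Fcgr3 is visible in the deposited values. Both genes held values that were not whole in all 18 libraries, and their sum was whole (within 0.011) in 11 of the 12 cultured libraries and in 1 of the 6 fresh ones. Fcgr2b took 34.1% ± 2.74 (SD, n = 3) of the reads of both genes in fresh WT and 31.0% ± 1.38 in fresh KO. In primed cells its share was 0.507% ± 0.227 in WT and 5.85% ± 1.49 in KO, and after NKG2D it was 0.835% ± 0.152 in WT and 4.46% ± 0.0754 in KO. The shares of the genotypes did not overlap in either cultured condition. Of the primed groups, KO held both the lower Fcgr3 level and the higher Fcgr2b level. An antisense gene, Gm38204, overlaps Fcgr2b and held 19 to 39 reads in fresh libraries and 0 to 4 in cultured ones. The labels do not say whether counting used strand.

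**Figure D2:**
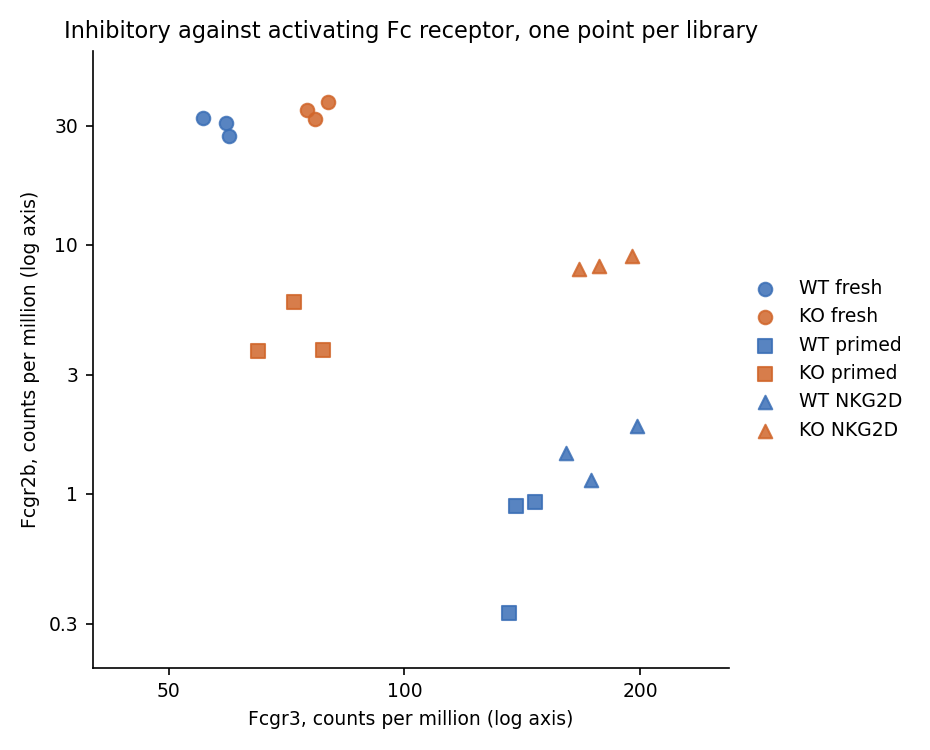
Fcgr2b against Fcgr3 in CPM, both on log axes, with 1 point per library, genotype by colour and condition by shape. Fresh libraries sit at 27.3 to 37.5 CPM of Fcgr2b. Primed WT libraries sit at low Fcgr2b and 136 to 147 CPM of Fcgr3, and primed KO libraries at higher Fcgr2b and 65.0 to 78.7 CPM of Fcgr3.

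Fcgr4, the other activating IgG receptor, was barely detected. It held 27 reads over all 18 libraries, at most 7 in any of them, and 0 reads in 9 libraries. Fresh cells gave 11 reads in WT and 9 in KO, primed cells 2 and 4, and NKG2D-stimulated cells 1 and 0. Most of these reads were in fresh libraries. A count of 0 allows up to 3 reads in a library. Fcgr4 did not pass the filter on low counts and was not tested, and the authors' deposited tables do not list it.

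Fcer1g, the gamma chain that pairs with NKp46 and Fc receptors, was the most abundant of the 6 genes per length. In fresh WT it held 2216 CPM per kb of merged exons, against 616 for Ncr1, 59.6 for Cd247, 33.5 for Fcgr3 and 5.20 for Fcgr2b, where the merged exons of Cd247 and Fcgr2b include those of many annotated transcripts. The fresh WT libraries read 1940, 1865 and 2004 CPM and the fresh KO libraries 2045, 2414 and 2265 CPM. The primed WT libraries read 1413, 1349 and 1120 CPM and the primed KO libraries 1069, 1296 and 1185 CPM. After NKG2D the WT libraries read 1121, 1122 and 1347 CPM and the KO libraries 949, 969 and 794 CPM. Every fresh library was above every cultured one, and every KO library was above every WT library in fresh cells and below them after NKG2D, with overlap in primed cells.

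Priming lowered Fcer1g by 1.5-fold in WT (95% interval 1.26 to 1.78, adjusted p = 0.000497) and by 1.89-fold in KO (1.59 to 2.25, adjusted p = 5.78e-06), and the difference between the responses did not pass the test (-0.34, adjusted p = 0.204). After NKG2D it was 1.32-fold lower in KO than in WT (1.11 to 1.57, log2 fold change -0.40, adjusted p = 0.0236). That call was lost without NKG2D WT replicate 3 (adjusted p = 0.136), without NKG2D KO replicate 3 (0.104) and on the compared libraries alone (0.0787), and the authors' deposited table gives -0.44 with an adjusted p of 0.000199. In fresh and primed cells the differences were 0.21 (95% interval -0.04 to 0.46) and -0.13 (-0.38 to 0.12). From primed to NKG2D, Fcer1g fell by 0.39 on the log2 scale in KO (adjusted p = 0.0163), a call lost without NKG2D KO replicate 3 (0.0691) or primed KO replicate 2 (0.0804) and on the compared libraries alone (0.0501). The WT value was -0.11 (adjusted p = 0.553). Fcer1a and Ms4a2, which pair with Fcer1g in mast cells and basophils, were at 0 in every group.

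Cd247, the zeta chain shared by NK receptors and the T cell receptor, fell at both steps of culture in both genotypes. It read 285, 313 and 354 CPM in fresh WT and 331, 363 and 350 CPM in fresh KO. Primed libraries read 119, 135 and 111 CPM in WT and 98.7, 116 and 109 CPM in KO. After NKG2D the values were 68.2, 73.4 and 84.6 CPM in WT and 76.8, 60 and 59.6 CPM in KO. The genotypes overlapped in all 3 conditions, and the 3 conditions did not overlap in either genotype.

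Priming lowered Cd247 by 2.62-fold in WT (95% interval 2.19 to 3.13) and 3.22-fold in KO (2.69 to 3.86), and NKG2D lowered it further by 1.61-fold (1.35 to 1.92) and 1.65-fold (1.38 to 1.97), each past the test. The responses differed by -0.30 (95% interval -0.66 to 0.06) and -0.04 (-0.40 to 0.32), and neither passed. The genotype differences were 0.13, -0.17 and -0.20 in fresh, primed and NKG2D cells, with adjusted p of 0.689, 0.366 and 0.275. The last was called by limma voom (adjusted p = 0.0137) and in the authors' deposited table (-0.287, adjusted p = 0.00445). Of the genes that pair with Cd247 in the T cell receptor complex, Cd3e read 5.72 CPM in fresh WT and 0.573 CPM in primed WT, Cd3d 16.2 and 11.2 CPM, and Cd3g 22.3 and 32 CPM. The whole T cell list summed to 364 to 436 CPM in fresh WT and was higher in primed WT, where Trbc1 gave 312 CPM, and its part in the Cd247 values was not tested. A further gene on the same strand, Gm16565, overlaps Cd247 and shares 2.9% of its 50-base runs, and it read 9.52 CPM in fresh WT.

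**Figure D3:**
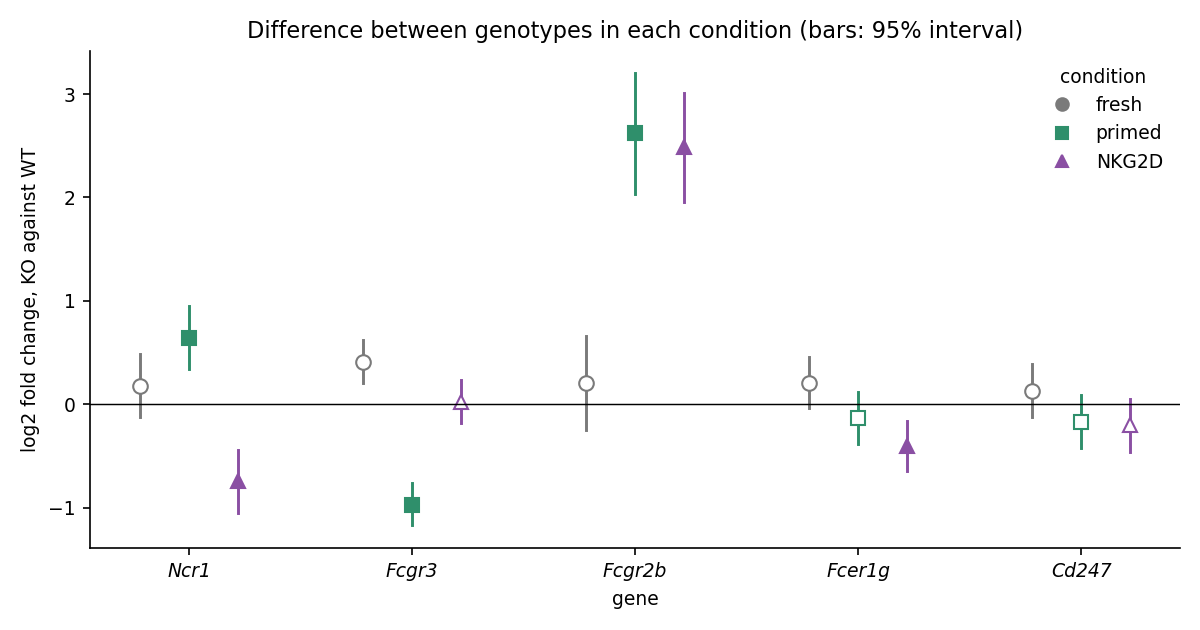
Log2 fold change of KO against WT for the 5 tested genes in each condition (marker shape and colour), with 95% intervals. Filled markers passed the test at an adjusted p of 0.05. No gene passed in fresh cells, Fcgr2b lies at 2.62 and 2.49 in primed and NKG2D cells, and Ncr1 changes sign from 0.64 to -0.74.

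Counted over the tested genes, 0 of 5 differed between genotypes in fresh cells by edgeR, where 0.0673% of all genes passed, and the unadjusted p was under 0.05 for 1 of 5 (Fcgr3, the 1 gene called by DESeq2 and by limma voom). Among primed cells 3 of 5 differed, 2 higher and 1 lower in KO, where 15.5% of all genes passed. After NKG2D 3 of 5 differed, 1 higher and 2 lower, where 18.2% of all genes passed. The median log2 difference of the 5 genes was 0.21, -0.13 and -0.20 in the 3 conditions, against 0.01, -0.02 and 0.03 over all genes.

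Priming changed 5 of 5 in WT, 1 upward (Fcgr3) and 4 downward, where 53.7% of all genes passed, and 4 of 5 in KO, all downward, where 48.7% passed. The median change of the 5 genes was -1.39 in WT and -0.95 in KO, and of all genes -0.06 in each. The NKG2D step changed 4 of 5 in WT, where 19.9% passed, and 5 of 5 in KO, where 35.3% passed. The 2 upward changes were Fcgr3 and Fcgr2b in both genotypes. The priming responses of the genotypes differed for 2 of 5, Fcgr3 and Fcgr2b, where 10.5% of all genes passed. The NKG2D responses differed for 2 of 5, Ncr1 and Fcgr3, where 3.55% passed. These comparisons share libraries, so their counts are not independent.

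**Figure D4:**
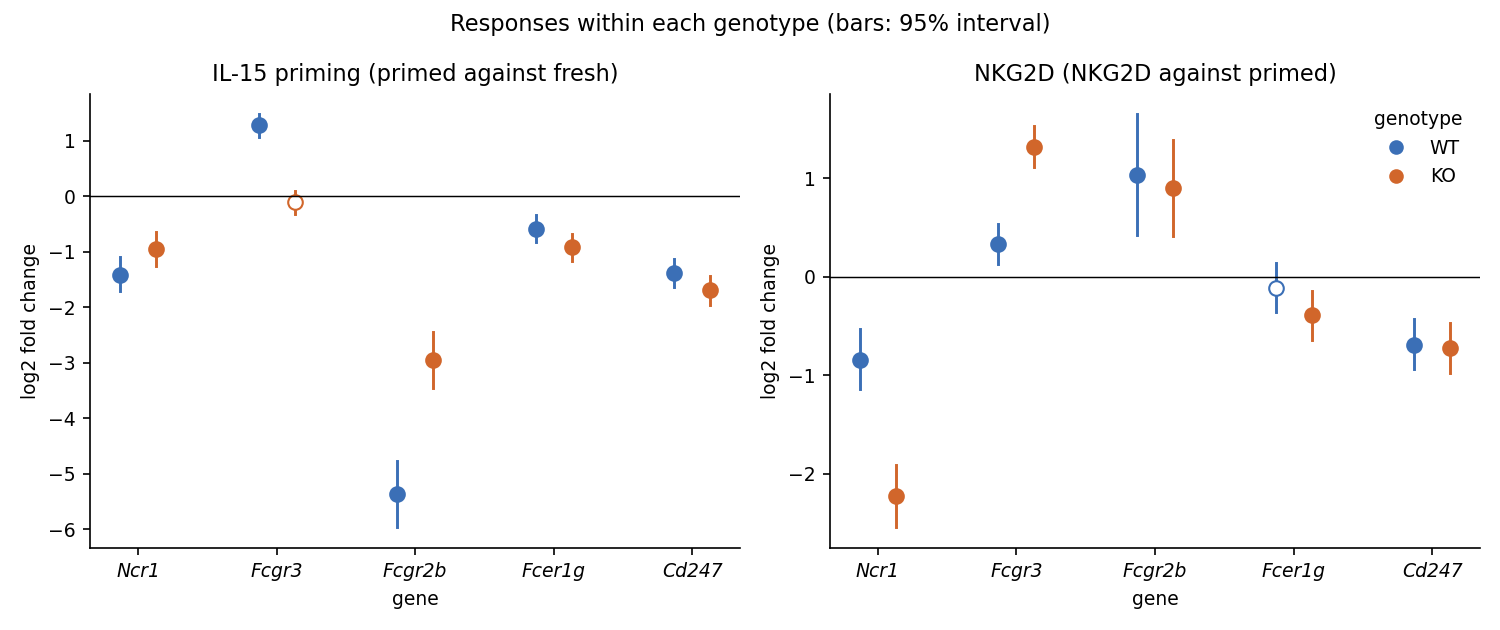
Log2 fold change on IL-15 priming (left) and on NKG2D stimulation of primed cells (right) for the 5 tested genes in WT and KO, with 95% intervals. Filled markers passed the test. The priming values of Fcgr3 are 1.28 in WT and -0.10 in KO, and the NKG2D values of Ncr1 are -0.84 in WT and -2.22 in KO.

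Of 26 other adaptors and proximal signalling genes of the ITAM pathway, 1 rose and 4 fell in primed KO against WT (median log2 change -0.06, all genes -0.02), and again 1 rose and 4 fell after NKG2D (median 0.00, all genes 0.03). These counts lie near the 15.5% and 18.2% of all genes that passed and are no result about the list. Syk, the kinase that binds phosphorylated ITAMs, was higher in KO by 0.48 in primed cells (adjusted p = 0.0242). After NKG2D it was higher by 0.88 (adjusted p = 0.000338), at 59.1 CPM in KO against 32.1 CPM in WT. Tyrobp (DAP12), another ITAM adaptor of NK receptors, was lower in KO by 0.95 in primed cells (adjusted p = 0.00175), at 360 CPM against 696 CPM in WT. After NKG2D it was lower by 0.73 (adjusted p = 0.00846). Pik3r1, a regulatory subunit of PI3-kinase, was lower in KO by 0.54 in primed cells (adjusted p = 0.00152).

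On priming, 6 of the 26 rose and 12 fell in WT (median -0.45, all genes -0.06), and 3 rose and 15 fell in KO (median -0.50), where 53.7% and 48.7% of all genes passed. Sh2d1b2, the adaptor EAT-2B, rose by 3.31 in WT and 2.38 in KO, and Fyn, a Src-family kinase, fell by 1.75 and 1.87. The priming response differed between genotypes for 1 of 26, Tyrobp (-1.27, SE 0.253, adjusted p = 0.00483), where 10.5% of all genes passed. That count is no result about the list. From primed to NKG2D, 2 rose and 5 fell in WT and 3 rose and 7 fell in KO, where 19.9% and 35.3% of all genes passed. Sh2d1a, the adaptor SAP, rose by 0.71 in WT and 0.91 in KO. Lcp2, the scaffold SLP-76, fell by 0.59 in WT.

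Of 16 genes that restrain ITAM signalling, 1 rose and 5 fell in primed KO against WT (median -0.33, all genes -0.02), and 1 rose and 1 fell after NKG2D (median 0.10, all genes 0.03), where 15.5% and 18.2% of all genes passed. Ubash3a and Ubash3b, phosphatases that act on Syk-family kinases, were lower in KO by 0.97 (adjusted p = 0.000248) and 0.54 (adjusted p = 0.000155) in primed cells. Dok2, an adaptor that dampens tyrosine kinase signals, was higher in KO by 0.39 in primed cells (adjusted p = 0.0456) and by 0.67 after NKG2D (adjusted p = 0.00163). From primed to NKG2D, 4 of the 16 rose and 3 fell in WT, and 9 rose and 3 fell in KO (median 0.36, all genes 0.04), where 19.9% and 35.3% of all genes passed. Dgka, a diacylglycerol kinase, rose by 0.59 in WT and 1.4 in KO, and Dok1 by 0.85 and 1.28. The priming response differed for 4 of 16, all lower in KO, where 10.5% of all genes passed, among them Ubash3a (-1.37, adjusted p = 0.000581) and Ubash3b (-0.63, adjusted p = 0.0015).

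Of 7 other NK receptors that use ITAM or related adaptors, 2 were higher and 1 lower in primed KO than in primed WT. After NKG2D, 0 were higher and 2 lower in KO than in WT, where 15.5% (primed) and 18.2% (NKG2D) of all genes passed. Their median was 0.22 and -0.08, against -0.02 and 0.03 over all genes. Klrk1, which encodes NKG2D itself, was 0.68 higher in primed KO than in primed WT (adjusted p = 0.000119), at 1327 against 827 CPM. Klrc2, an activating receptor that pairs with Tyrobp, was 0.74 higher (adjusted p = 0.000976), at 158 against 94.6 CPM. Neither mean rose on priming in KO, where fresh cells read 1392 CPM of Klrk1 and 327 CPM of Klrc2. Klrb1a was lower in KO than in WT by 0.60 in primed cells and by 0.76 after NKG2D (adjusted p = 0.00868 and 0.00137). The NKG2D response of Klrc2 was lower in KO than in WT (-0.79, adjusted p = 0.0255). Of 15 other Fc receptor and Fc receptor-like genes, 6 were tested, and Fcrl6 was lower in KO in primed cells (-2.11, adjusted p = 0.0159) and after NKG2D (-2.38, adjusted p = 0.00912), at means of at most 4.39 CPM in these groups. Fcgr1, the high-affinity IgG receptor, held at most 5 reads in a library and was not tested.

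The genes whose pattern over the 6 groups was nearest to each member were sought among 7586 genes whose mean log2 CPM was 3 or more, by the root mean square difference of mean-centred log2 CPM. For Cd247 they were Lat, the linker of T cell receptor signalling (0.06), Fasl, the Fas ligand (0.13) and Itgb2, a leukocyte integrin chain (0.16). For Fcgr3 they were Cep19 (0.09), Chchd5 (0.11) and Fzr1 (0.13), for Fcer1g Vasp (0.09), Sft2d1 (0.09) and Chst11 (0.10), and for Ncr1 Adamts14 (0.14), Srsf5 (0.20) and Sdc4 (0.21). No gene was as near to Fcgr2b, for which the nearest were Cmah (0.50), S1pr5 (0.51) and Mcam (0.60). The values are descriptions over 6 group means.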

How the data were processed

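RNA-seq was analysed from 18 libraries of sorted NK cells in 6 groups of 3. The authors deposited expected counts per gene, estimated reads that are not scaled between libraries, of which 30.0% of values above 0 are not whole. Per the submitters' processing notes, mm10, bcl2fastq, DRAGEN and edgeR were used. The notes give no versions, annotation or use of strand. The table held 55774 entries for 55487 identifiers. The 168 identifiers that occurred more than once held the same values each time and were counted once. The authors also deposited tables of log2 fold changes and p-values for KO against WT, read here for the 6 genes only; 54 per-sample columns in them were not used.

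Because the planned test takes whole counts, the deposited values were first rounded. The test was edgeR 4.0.16 (R 4.3.3) with TMM factors and the quasi-likelihood F-test, fitted to 6 group means over the 18 libraries for 14864 genes that passed its expression filter, with 12 residual and 5.14 prior degrees of freedom and a common biological coefficient of variation of 0.234. P-values were adjusted by Benjamini-Hochberg over all genes of a comparison at 0.05. The procedure was tested on simulated data with changes placed in primed KO only, and that outcome is not reported here. A difference of response is the difference of 2 contrasts in the same fit. Alternatives were DESeq2 1.42.0, limma 3.58.1 (voom with quality weights), RLE factors, other filters, unrounded counts, the compared libraries alone, a replicate block, leaving out each library and, chosen after seeing the data, a sex-pattern term (Xist against 4 Y-linked genes).

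Same-numbered libraries deviated together in every pair only for primed against fresh KO (correlations 0.236, 0.299 and 0.174 over genes), where the block is taken as a pairing found in the data. The block changed no call of the 5 genes there.

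The 6 genes and all lists were chosen with earlier results of these data known. Named genes are the members, Acly, up to 2 risen and 2 fallen genes of smallest p per pathway list and comparison, the 3 nearest patterns per member, and markers as levels. A few of them are not reported here. Fcgr1, Gm38204 and Gm16565 were named after their values were seen. Total reads per library (14772300 to 34367538) limit low genes most. Reads carry no molecular barcodes, so limits at a count of 0 cover counting error only. Sequences are from GENCODE transcripts on mm10 and RefSeq promoter windows on GRCm38.p6.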

Additional observations from a re-analysis of the deposited data

Results flagged for a closer look

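The response to a stimulus differed between KO and WT in 4 cases, by a test of the difference itself in edgeR. These were 2 of the 5 tested genes on priming, where 10.5% of all genes passed, and 2 of 5 on NKG2D, where 3.55% passed. On IL-15 priming the change of Fcgr3 was lower in KO by 1.38 on the log2 scale (-1.38, adjusted p = 2.08e-05), and all 3 primed KO libraries lay below all 3 primed WT libraries. The change of Fcgr2b on priming was higher in KO by 2.41 (adjusted p = 0.00054), on 7 to 29 reads in the primed WT libraries. On NKG2D stimulation the change of Ncr1 was lower in KO (-1.38, adjusted p = 0.0012) and that of Fcgr3 higher by 0.99 (adjusted p = 0.000919). All 4 differences passed in each of the 9 other settings and with each of the 12 libraries left out in turn. The 2 Fcgr3 values share the primed libraries and are not independent.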

How the results depend on the processing

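Of 735 values of the 5 genes under other settings or with a library left out, 701 kept their direction and side of the threshold, 16 lost a call, 7 gained one and 11 changed sign. The genes called in fresh KO against WT rose from 0 to 1 with DESeq2, with limma voom and on the compared libraries alone. With 1 library left out, the genes called ranged from 0 to 0 in fresh, 3 to 3 in primed and 2 to 3 in NKG2D KO against WT, 5 to 5 and 4 to 4 for priming in WT and KO, 2 to 4 and 4 to 5 for NKG2D in WT and KO, and 2 to 2 for both differences of response. All sign changes were in values that never passed the test. Fcgr3 in NKG2D KO against WT became -0.0218 with limma voom, and ranged from -0.0468 to 0.12 with 1 library left out (negative without NKG2D WT or KO replicate 1). Over the same omissions, Fcgr3 on priming in KO ranged from -0.173 to 0.0204 (positive without primed KO replicate 1). The NKG2D response difference of Fcgr2b ranged from -0.367 to 0.187, positive without NKG2D WT replicate 3, primed WT replicate 1 or primed KO replicate 3. That of Cd247 ranged from -0.164 to 0.0579, positive without NKG2D WT replicate 3, NKG2D KO replicate 2, primed WT replicate 3 or primed KO replicate 2. The cause was not tested.

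With a replicate block the Fcgr3 value of the WT NKG2D step was 0.33 (adjusted p = 0.0608) and lost its call; the block changed no other call of the 5 genes. Outside primed against fresh KO the same-numbered libraries did not all deviate together. Within a genotype they share the sex pattern beside the number. Between genotypes, libraries numbered 1 or 2 share only the number, and those numbered 3 share the male pattern as well.

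Over all genes, fresh KO against WT called 10 genes, but 137 with DESeq2, 1900 with limma voom, 564 with no filter and 780 on the compared libraries alone. Primed KO against WT called 2307, but 4214 with limma voom and 1128 on the compared libraries alone, and NKG2D KO against WT 2708, but 6256 with limma voom. The WT NKG2D step called 2954, but 5295 with limma voom, and the KO NKG2D step 5248, but 3450 on the compared libraries alone. The difference of priming responses called 1559, but 4157 with limma voom and 972 with the block. The difference of NKG2D responses called 528, but 1016 with DESeq2, 2114 with limma voom, 887 with no filter, 203 on the compared libraries alone and 250 with the block. With 1 library left out, these counts ranged from 5 to 12 in fresh, 1357 to 2589 in primed and 1643 to 3051 in NKG2D KO against WT (lowest without fresh KO replicate 3, primed WT replicate 2 and NKG2D KO replicate 3), and from 842 to 2453 and 242 to 598 for the differences of response to priming and to NKG2D (lowest without primed WT replicate 2 and NKG2D WT replicate 1).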

Other observations

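The stretch of chromosome 1 from Fcgr2b to Fcer1g holds 17 annotated genes, 11 of them protein coding, and its other genes were read out after the values of the members were seen. Gm10522, a lincRNA gene between Fcgr2b and Fcgr4, read 14.3 CPM in fresh WT and 14.9 in fresh KO, 0.100 and 0.746 in primed cells, and 0.132 and 0.815 after NKG2D. It was higher in KO by 2.61 on the log2 scale after NKG2D (adjusted p = 0.0425) and by 2.66 in primed cells, which did not pass (adjusted p = 0.0523). Its log2 change on priming was -6.84 in WT and -4.24 in KO.

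Of the other protein-coding genes of the stretch, 5 were tested, all between Fcgr3 and Fcer1g. Over all genes, 53.7% passed on priming in WT, 48.7% in KO and 10.5% in the difference between these responses. On priming in WT 4 of the 5 rose: Cfap126 by 0.77, Sdhc, a subunit gene of succinate dehydrogenase, by 0.48, Tomm40l by 0.93 and Apoa2 by 3.52 (adjusted p = 0.021, 0.00534, 0.00151 and 0.000812), the last at under 2 CPM. Nr1i3 had a change of -0.43 in WT (adjusted p = 0.725). In KO the changes were -0.19, -0.21, 0.10 and 1.15 for the first 4 genes, none past the test, and 3.22 for Nr1i3 (adjusted p = 0.00917), at under 1 CPM. The difference between the priming responses passed for Sdhc (-0.69, adjusted p = 0.0245) and for none of the others (adjusted p from 0.0873 to 0.162).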
